A study of Mus musculus with 45 samples.

Results

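The wild-type (WT) list of Capicua (CIC) peaks in the mouse cerebellum was taken whole from chromosomes 1 to 19. It was made of the regions in which the merged CIC libraries of WT mice exceeded the merged CIC libraries of CIC KO mice. Lines that gave several summits of 1 peak were joined by their peak number, so that 5846 summits came to 4495 peaks. The 3 deposited lists of the series hold 7213 peaks in all, 4596 of them in the WT list, the rest of which lie off chromosomes 1 to 19 and were left out. Another of the lists is labelled as repeat-masked and the WT list is not, so the sizes of the lists are not compared. Signal was measured by CUT&RUN, in which an antibody tethers a nuclease that releases the DNA under the bound protein. Both groups were 10 weeks old and of C57BL/6 background, with 4 WT and 4 CIC KO animals, among 45 samples from 4 genotypes and 3 antibodies. CIC KO mice were En1-Cre;Cic fl/fl, that is, Cre from the Engrailed-1 locus removed Cic in the lineage that forms the cerebellum and midbrain. Cells of other lineages in the tissue, such as blood vessel cells and microglia, keep Cic under this Cre, and the control is whole cerebellar tissue. Animals were merged before peaks were called, so every value in the lists used here is a single observation with no spread between animals, and the intervals given here cover counting over peaks or genes only. The tissue itself could not be checked against expression of its marker genes, because the lists hold peaks alone.

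CIC is an HMG-box protein that binds short AT-rich sites (the octamer is spelled out with the sequences) and represses transcription. Its best known targets are brakes and effectors of receptor tyrosine kinase signalling, since RAS-ERK activity removes CIC from DNA and so switches these genes on. In the cerebellum CIC is held in a stable complex with ATXN1, the protein that carries the expanded polyglutamine tract in spinocerebellar ataxia type 1. The WT list describes where merged WT signal exceeded merged CIC KO signal in the adult cerebellum, and binding of CIC at single sites was not tested.

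The list was dominated by promoters, with a smaller set of distal sites among the strongest peaks. Of the 4495 peaks, 2565 (57.1%, 95% Wilson interval 55.6 to 58.5%) had their summit within 1 kb of a start site, 1242 (27.6%) lay in introns and 581 (12.9%) between genes. Coding exons held 43 peaks, untranslated regions 42 and noncoding exons 22. The share of promoters fell down the list, from 76.0% of the first 100 peaks and 73.8% of the next 400 to 62.8% of the next 1000 and 52.3% of the remaining 2995, where rank is by the −log10 q of the peak caller. Peaks covered 1183 kb, or 0.0480% of these chromosomes.

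Summit sequences are shown for strong peaks with the CIC octamer, to let its position be seen, that is TGAATGAA, TGAATGGA, TCAATGAA or TCAATGGA on either strand. Each is the plus strand of GRCm38 from 50 bp before to 50 bp after the summit, with the octamer in capitals. For Etv4 and Mafg only 30 bases around the octamers are given. Etv5, Etv4 and Etv1 encode the PEA3 factors, Spred1 an inhibitor of RAS activation, Mafg a small MAF factor, and the peaks named for Mrc2 and Clstn2 are distal.
Etv5 promoter (chr16:22439844-22439944): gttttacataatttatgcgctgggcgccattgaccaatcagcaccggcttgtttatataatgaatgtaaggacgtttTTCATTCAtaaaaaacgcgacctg
Etv1 promoter (chr12:38780732-38780832): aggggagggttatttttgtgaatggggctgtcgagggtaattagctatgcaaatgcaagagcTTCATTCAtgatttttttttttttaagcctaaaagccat
Etv4 promoter (chr11:101785349-101785378): ttgtTTCATTGActtttgTGAATGAAaccc
Spred1 intron (chr2:117123127-117123227): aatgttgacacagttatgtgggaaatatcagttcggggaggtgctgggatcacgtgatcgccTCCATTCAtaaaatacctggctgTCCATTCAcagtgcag
Between genes, nearest coding start Mrc2 (chr11:105353305-105353405): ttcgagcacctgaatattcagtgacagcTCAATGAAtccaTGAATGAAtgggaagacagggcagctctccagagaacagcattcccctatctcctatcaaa
Clstn2 intron (chr9:97685749-97685849): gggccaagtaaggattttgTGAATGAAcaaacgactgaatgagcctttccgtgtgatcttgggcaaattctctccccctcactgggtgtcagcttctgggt
Fos (chr12:85474576-85474676): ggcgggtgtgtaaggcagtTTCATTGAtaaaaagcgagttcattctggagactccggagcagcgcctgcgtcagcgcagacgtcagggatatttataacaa
Mafg promoter (chr11:120633581-120633610): gtcacgtgggtTCCATTCAtgaagcggcga
The Etv4, Spred1 and Mrc2 windows held 2 octamers each, and the others shown held 1. The centre of the first octamer lay 31 bp right of the summit at Etv5, 16 bp right at Etv1 and Spred1, and to the left at Mrc2 (-18 bp) and at Clstn2, Etv4 and Fos (-27 bp each). For contrast, the windows of strong peaks at Hsd17b12 and Dusp4 held none of the 4 octamers and none of the 8 other motifs searched, although the Dusp4 window has TGAATGG, the first 7 bases of an octamer.
Hsd17b12 promoter (chr2:94157984-94158084): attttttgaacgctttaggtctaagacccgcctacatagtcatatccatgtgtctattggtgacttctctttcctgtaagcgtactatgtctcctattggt
Dusp4 promoter (chr8:34807074-34807174): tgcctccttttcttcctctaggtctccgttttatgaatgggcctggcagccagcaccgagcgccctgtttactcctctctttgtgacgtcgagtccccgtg

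The depth behind each summit was recovered from the deposited fold enrichment, which is (pileup + 1)/(background + 1), and −log10 p. A whole pileup that returned the −log10 p within 0.01 was found for all 5846 summits. The pileup, that is the number of WT fragments over the summit, ranged from 19 to 5275 with a median of 30 (quartiles 23 and 43). The background is the number of fragments that the caller takes from CIC KO, at or around the summit, after scaling. It never fell under the genome-wide level of 6.59 fragments and had a median of 8.22. At 1140 peaks (25.4%) it stood at that floor, at 22.3% it was over 2 times the floor, and at 116 over 10 times. Each control fragment counted as 0.585, and at 2233 peaks the background was a whole multiple of this weight (within 0.02 of a fragment). Pileup and background went together across the 4495 peaks (Spearman's rho 0.79, a description over peaks of the same merged libraries). Median fold enrichment was 2.99 (quartiles 2.64 and 3.58, highest 16.0), so a typical peak was about 30 fragments over about 8.

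**Figure D1:**
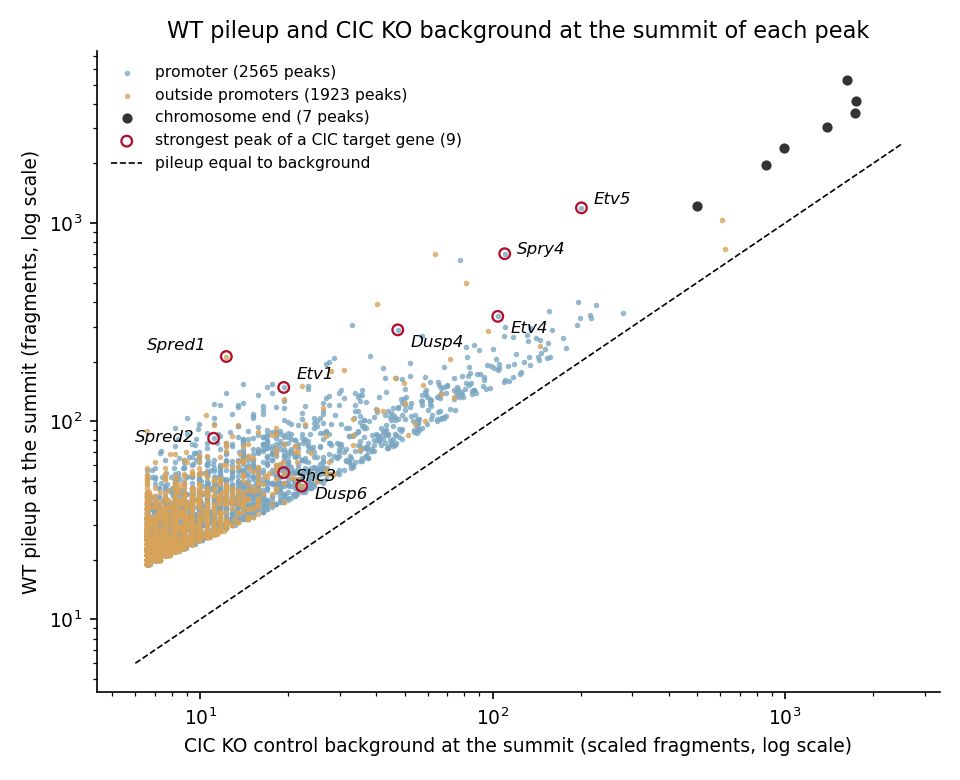
WT fragments (vertical axis) against scaled CIC KO background (horizontal axis) at the summit of each of the 4495 peaks, both on log scales; blue points are promoter peaks, orange points lie outside promoters, black points are the 7 peaks at chromosome ends and red circles mark the strongest peak of each of 9 CIC target genes. Spred1 (212 fragments over 12.3) and Etv5 (1193 over 201) stand clear of the main cloud, and the 7 chromosome-end peaks hold high values in both groups.

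Among the 15 highest-ranked peaks, 7 lay about 100 kb from the end of a chromosome, on chromosomes 14, 16, 12, 3, 13, 19 and 1 (ranks 1, 2, 6, 7, 9, 11 and 15). All of their bases were soft-masked as repeats, and telomere units (TTAGGG on either strand) made up 94.96 to 97.87% of each interval. Their pileups ran from 1222 to 5275 fragments over backgrounds of 499 to 1744, a fold enrichment of only 2.08 to 3.24. They are named here by position and are not read as bound genes. In the whole list 131 peaks (2.91%) had over 50% of their bases masked. Of the 25 highest-ranked peaks 14 were promoters, and among the 25 highest that remain without the 7 chromosome-end peaks 19 were.

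The strongest peak outside repeats stood at the promoter of Etv5, whose summit lay 175 bp upstream of the start (chr16:22439626-22440367). It held 1193 fragments over a background of 201, a fold enrichment of 5.90. Next came a peak between genes on chromosome 11 (chr11:105353013-105353541), 60687 bp into the region downstream of the nearest coding start, that of the collagen receptor gene Mrc2, with 697 fragments over 63.8 (10.8-fold). The promoter of Hsd17b12, which encodes an enzyme of fatty acid elongation, held 652 over 77.2 (8.35-fold). Spry4, an inhibitor of RAS-ERK signalling, held 700 over 110 (6.32-fold) 3 bp upstream of its start. For comparison, 90% of all peaks had a pileup of 75 or less.

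Distal and intronic sites followed directly. An intron of Clstn2, a synaptic calsyntenin, held 390 fragments over 40.4 (9.45-fold), and a peak between genes with Sipa1l2 as its nearest coding start held 498 over 81.3 (6.06-fold). The highest fold enrichment of the list, 16.0, was in an intron of Spred1, 1539 bp downstream of its start, with 212 fragments over 12.3. Of similar rank were the promoters of Hbp1, an HMG-box repressor (rank 13, 305 over 33.1), of the MAP kinase phosphatase Dusp4 (rank 16, 289 over 47.4) and of the class IIa histone deacetylase Hdac4 (rank 17, 209 over 28.7). Prcc, the RHEB-like GTPase gene Rhebl1, the miR-22 host gene Mir22hg, the orphan nuclear receptor gene Esrra, Rab40c, the ribosomal protein gene Rpl41, 0610009E02Rik beside Sec16a, and the palmitoyltransferase gene Zdhhc5 completed the first 25. Their fold enrichments ran from 4.61 at Rab40c to 10.5 at Esrra, all with the summit within 442 bp of a start site. Esrra showed 138 fragments over 12.3, whereas Rab40c showed 268 over 57.3. A high rank was thus reached either by a large pileup over a high control or by a moderate pileup over a control near the floor.

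Of 12 established CIC targets, 9 had a peak in the gene body or up to 5 kb upstream. This is 75% (95% Wilson interval 46.8 to 91.1%), beside 17% of all 20807 protein-coding genes on these chromosomes. Etv4, Etv5, Spry4 and Spred1 were named by the study from these libraries, so they are not independent evidence. The PEA3 genes differed in how the signal was laid out. Etv4 had 1 narrow promoter peak of 253 bp with 338 fragments over 104 (3.22-fold). Etv5 had 3 peaks, namely the promoter peak, a second 1154 bp into the gene (129 over 19.3) and another 7434 bp into it (42 over 11.7). Etv1 had 4 peaks. Its strongest was 933 bp wide with 5 summits (31, 34, 39, 148 and 39 fragments from left to right, with a background of 19.3 at the highest), and another promoter peak held 242 over 86.6 at only 2.77-fold. Etv4 therefore had more fragments than Etv1 at its best summit, but a lower fold enrichment.

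The SPRED and Sprouty inhibitor genes carried peaks unevenly. Spred1 had 3 peaks, Spred2 had 4 and Spry4 had 2, whereas Spry1, Spry2 and Spred3 had none. Spred2 showed the broadest signal of these genes, a peak of 1199 bp with 6 summits of 82, 40, 47, 48, 79 and 39 fragments, and a second, intronic peak of 800 bp with 5 summits of at most 48 fragments. The nearest peak to a Spry2 start was 2424 kb away, and the nearest to a Spred3 start was 12.0 kb away and assigned to Psmd8. Among the phosphatases, Dusp4 ranked 16th while Dusp6 had a single weak promoter peak of 47 fragments over 22.2 (2.07-fold, rank 3159). The adaptor gene Shc3 had 1 peak at -2341 bp from its start (55 over 19.3, rank 1259). Cyclin D1 (Ccnd1) had none, and its nearest peak lay 24.8 kb away.

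Cic itself had 5 peaks. The strongest, 418 bp downstream of a Cic start, held 400 fragments over 196 (2.04-fold, rank 114), and a second sat 93 bp upstream of another Cic start with 117 over 45.6. Control animals carry the recombined Cic allele, and at Cic loss of the DNA and loss of binding cannot be told apart. En1, the gene that drives Cre, and Atxn1 had no peak, and their nearest peaks were 689 kb and 385 kb away.

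Promoter summits lay close to the start site and mostly upstream of it. The median position was -66 bp (quartiles -164 and 39), and 1754 of 2565 summits (68.4%) were upstream. Within 250 bp of the start on either side lay 1890 (73.7%), of which 1371 were upstream. The nearest start was that of a protein-coding gene at 2263 promoter peaks (88.2%), of a lincRNA at 83 and of an antisense RNA at 74. Both strands had a protein-coding start within 1 kb at 322 promoter peaks (12.6%), and the start of 10.3% of all protein-coding genes has such a neighbour, counted per gene and not per peak. Promoter peaks had more fragments than the others (median 35 against 25) over a higher CIC KO background (9.94 against 7.02), and their median fold enrichment was slightly lower (2.94 against 3.03). Outside promoters the median distance to a start was 12058 bp. There 562 of 1930 peaks (29.1%) lay within 5 kb and 284 (14.7%) beyond 50 kb. Promoter summits also were richer in G and C, at a median of 60.4% of the summit window against 51.5%.

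**Figure D2:**
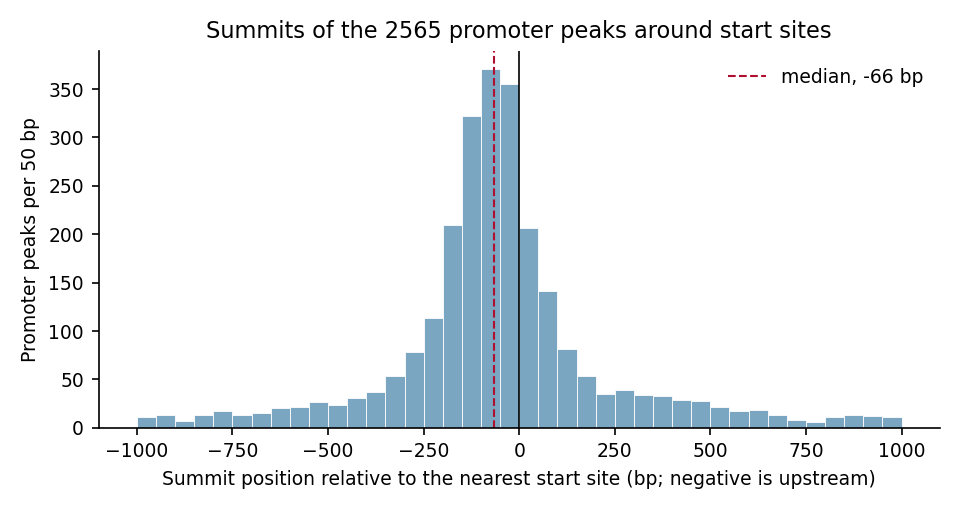
Number of promoter peaks per 50 bp (vertical axis) by the position of the summit relative to the nearest start site in bp (horizontal axis, negative is upstream), for 2565 peaks. The summits pile up just upstream of the start, with the median (dashed line) at -66 bp.

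Peaks were narrow. The median width was 214 bp (95% interval of the median 209 to 219 bp), with quartiles of 158 and 315 bp and a range of 123 to 2066 bp. Only 322 peaks (7.16%) were wider than 500 bp and 20 were wider than 1000 bp. The median was 220 bp at promoters, 215 bp between genes, 202 bp in introns, 189 bp in coding exons (43 peaks), 178 bp in untranslated regions (42 peaks) and 223 bp in noncoding exons (22 peaks). Strong peaks were wider, at a median of 454 bp in the first 100 and 190 bp in the last 2995. A peak ends where its signal falls to the calling threshold, so width rises with height by construction (Spearman's rho of width and pileup 0.36 across 4495 peaks).

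More than 1 summit was found in 993 peaks (22.1%, 95% Wilson interval 20.9 to 23.3%), which held 2344 of the 5846 summits (40.1%). Of these, 740 had 2 summits, 187 had 3, 41 had 4 and 25 had 5 or more. Multi-summit peaks made up 43.0% of the first 100 peaks, 44.8% of the next 400, 38.0% of the next 1000 and 13.1% of the rest. They were about as frequent at promoters (23.4%, interval 21.8 to 25.1%) as between genes (23.2%, 19.98 to 26.84%), and stood at 19.4% (17.3 to 21.7%) in introns. Neighbouring summits of a peak lay a median of 156 bp apart (quartiles 122 and 203 bp), and 808 of 1351 pairs (59.8%) were 100 to 200 bp apart. The second summit was nearly as high as the first in many, with a median ratio of pileups of 0.81, and in 25.7% of multi-summit peaks the ratio was 0.9 or more.

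**Figure D3:**
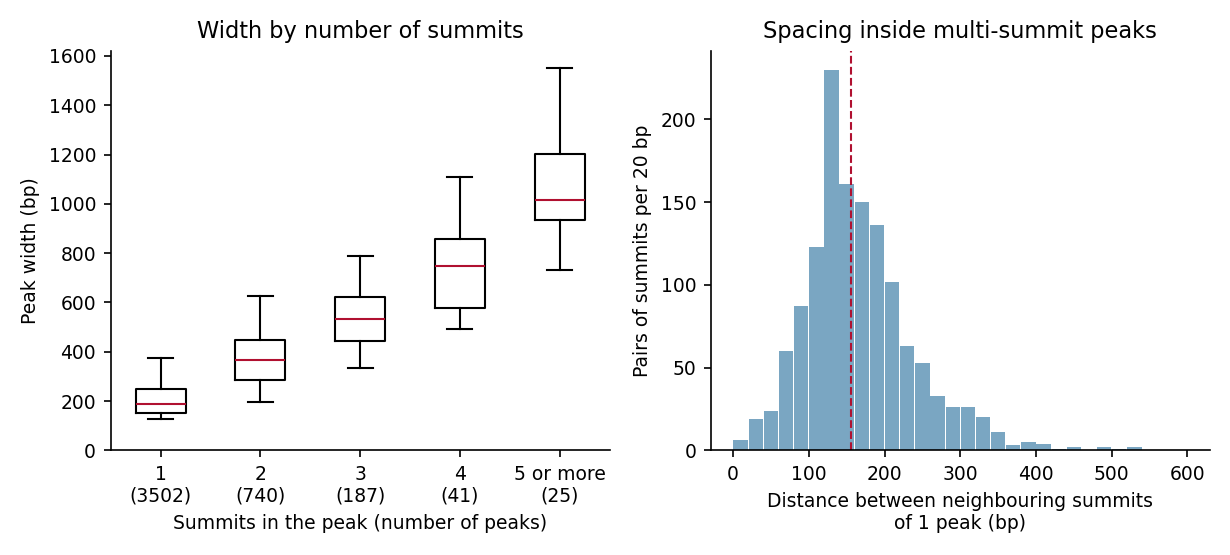
Left, peak width in bp by number of summits (box, quartiles; red line, median; whiskers, 5th and 95th percentile; number of peaks in brackets); right, pairs of neighbouring summits per 20 bp by their distance in bp, with the median of 156 bp dashed and 1 pair over 600 bp apart not drawn. Median width rises from 187 bp at 1 summit to 367 bp at 2, 534 bp at 3, 749 bp at 4 and 1015 bp at 5 or more.

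The widest peak, 2066 bp with 9 summits of 22 to 89 fragments, had its highest-ranked summit 279 bp downstream of the start of Crlf2, a cytokine receptor gene (chr5:109556679-109558744). The next that were less than 10% masked were at the noncoding gene Gm6410 (1994 bp, 7 summits), in an intron of the kinase gene Prkcz (1550 bp, 7 summits), 1804 bp into the imprinted zinc finger gene Peg3 (1419 bp, 6 summits) and in Ppp2r3d (1371 bp, 6 summits). A peak of 2050 bp with Cyp8b1 as its nearest coding gene was fully masked. Further wide peaks lay in the noncoding gene region C130071C03Rik next to Mef2c (1217 bp), at Zfp78 (1203 bp), in Spred2 (1199 bp) and in the fatty acid transporter gene Slc27a1 (1183 bp). Among the peaks with the most summits were also an intron of Foxn3 (7 summits), a peak whose nearest coding start is that of Speg (6 summits, summit at -5348 bp), and the promoters of Etv1 and Mypop, which were 2 of 17 with 5. Etv1 (rank 29), Slc27a1 (34), Mypop (44), Zfp78 (63), Crlf2 (87) and Spred2 (88) were among the first 100 peaks, whereas Peg3 ranked 193, Ppp2r3d 383, Prkcz 596, Foxn3 1062, the peak next to Mef2c 1280 and that near Speg 1833. At Peg3 the 6 summits held 24, 41, 51, 47, 77 and 65 fragments, and at Sec16a 1 of 3 summits stood out (149, 40 and 20).

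A peak in the gene body or up to 5 kb upstream was found for 3535 of 20807 protein-coding genes (17%), and a peak within 1 kb of a start for 2528 genes (12.1%). In all 3840 peaks (85.4%) were assigned to a gene, 741 of them to more than 1. The share with any peak rose with gene length, from 10.4% of the shortest 5202 genes (up to 6.68 kb) through 15.2% and 18.6% to 23.8% of the longest 5202 (over 45.6 kb). The share with a promoter peak rose less, at 8.17%, 12.2%, 14.8% and 13.4%. Peaks per 100 protein-coding genes ranged from 15.9 on chromosome 14 to 26.5 on chromosome 8, and peaks per Mb followed genes per Mb over the 19 chromosomes (Spearman's rho 0.88, a description over chromosomes that share the same libraries).

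Several peaks per gene were found at 731 genes (3.51% of all), that is 481 with 2 peaks, 165 with 3, 52 with 4 and 33 with 5 or more. Of these genes, 487 (66.6%) had a promoter peak among them and 423 (57.9%) had all summits within 10 kb. The median span was 5115 bp. Multi-peak genes were longer, with a median of 42.7 kb against 24.8 kb for genes with 1 peak and 17.6 kb for all. The genes with the most peaks were chiefly very long. The first were Gm20388 (24 peaks over a gene model of 4434882 bp) and Fgfr2 (10 peaks over a model of 2960900 bp), both of which overlap many other genes in this annotation, so these counts cannot be credited to either gene. Tspan9, a tetraspanin gene, had 9, the cell adhesion gene Ntm 8, and Ablim1, Syne1, Zmiz1 and Soga1 had 7 each. Tex14, Dbp, Trpm3 and Grm4 had 6 each. Dbp, which encodes a clock-controlled PAR bZIP factor, differed in that its 6 peaks fell within 6255 bp on and upstream of a gene of 5116 bp, of which the best-ranked held 29 fragments over 7.64.

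Peaks with less than 10 kb to the next formed 550 groups with 1309 peaks (29.1%), of which 413 were pairs and 87 were triplets. The largest groups had 7 peaks each. One spanned 18021 bp around Cend1, Slc25a22 and Rplp2, the other 13931 bp around Car11, Dbp and Sphk2. Groups of 6 lay at Smg1, at Borcs6 with Tmem107, and at Soga1. Groups of 5 included Smarcd2, a subunit of the BAF remodelling complex (5209 bp, best rank 154), Diras2, the dynamin gene Dnm1 with Ciz1, Vamp2 with Per1, and Nr1d1. Grouping also depended on weak peaks. Above a −log10 q of 10, 38 of 811 peaks were in groups and 33 genes had 2 or more.

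Genes with a peak were described by 30 gene lists, each read against 17% of all protein-coding genes with a peak and 12.1% with a promoter peak. Above a −log10 q of 10, 859 of all 20807 genes had a peak, beside 3535 in the whole list, so counts there have a lower base. CIC targets had 7 of 12, negative regulators of RAS-ERK signalling 6 of 31 and the RAS-ERK cascade 1 of 32. Immediate early genes had 5 of 29, CIC partners and co-repressors 6 of 22 and ETS factors 4 of 24. Translation initiation factors had 7 of 48, cytosolic ribosomal protein genes 5 of 81 and splicing factors 4 of 67. Granule cell genes had 1 of 20 and histone genes 1 of 67. Most list counts thus rest on peaks under that level, but CIC targets, ETS factors and translation initiation factors kept most of theirs. In the whole list, negative regulators of RAS-ERK signalling had a peak in 17 of 31 (54.8%, Wilson interval 37.8 to 70.8%), of which 13 were at promoters, while the RAS-ERK cascade itself had 9 of 32 (28.1%, 15.6 to 45.4%). Besides the SPRED, Sprouty and DUSP genes already given, the negative regulators included Dusp5 (64 fragments over 13.5), Rasa1 (37 over 6.63) and Dusp10 (119 over 61.4). In the cascade Rps6ka5, a kinase downstream of ERK, led with 119 over 22.8, followed by the adaptor gene Grb2 (39 over 8.77). Receptor tyrosine kinases had 10 of 36 with a peak (15.8 to 44.0%, which holds the 17% of all genes) and 1 with a promoter peak. The 10 include Fgfr2, whose model overlaps other genes, and Flt1, whose peak is fully masked, and 8 had a peak without the repeat peaks. ETS factors had 7 of 24 (14.9 to 49.2%, which also holds it), led by the PEA3 genes. Immediate early genes had 14 of 29 (48.3%, 31.4 to 65.6%), 8 of them with several peaks. Fos led with 2 promoter peaks (150 over 23.4 and 73 over 10.5), followed by Egr1 with 3 (75 over 8.19 at the best) and the promoters of Maff (124 over 26.3) and Jun (135 over 35.1). CIC partners and co-repressors had 13 of 22 (59.1%, 38.7 to 76.7%), Cic included, led by the promoters of Sin3a (196 over 52.1), Zbtb5 (238 over 81.3) and Rbbp4 (144 over 35.7). This list also takes in Zbtb5, Rfx1 and Zkscan1, which the paper reports as interactors of ATXN1 other than CIC, not as CIC partners. Zbtb5 and Rfx1 are counted among the 13.

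Cell type lists differed in their counts, but most are short and their intervals wide. Granule cell genes, the genes of the most numerous cerebellar neuron, had a peak in 14 of 20 (70.0%, 48.1 to 85.5%), but only 6 at a promoter. Their peaks were weak, with none among the 500 highest. The GABA-A delta subunit gene Gabrd (38 over 6.59) led, followed by Cbln3 (45 over 12.3), Zic2 (39 over 9.94) and Neurod2 (31 over 6.63). Zic1 and Zic4 share 1 peak between them. Purkinje cell genes had 3 of 25 (12%, 4.17 to 29.96%), namely Cacna1a with 5 intragenic peaks (51 over 11.7 at the best), Rora and Ebf2, and none at a promoter. Astrocyte and Bergmann glia genes had 1 of 20 (0.888 to 23.6%), oligodendrocyte genes 0 of 20 (Wilson upper limit 16.1%), cerebellar interneuron genes 0 of 15 (upper limit 20.4%), microglia genes 2 of 15 (3.74 to 37.9%) and vascular genes 1 of 15 (1.19 to 29.8%), the last being a fully masked intronic peak of Flt1 (205 over 71.4), so that no vascular gene had a peak once repeat peaks were left out. The intervals of the Purkinje, interneuron, astrocyte, microglia and vascular lists hold the 17% of all genes. By the nearest protein-coding start, interneuron genes had 2, oligodendrocyte genes 1, astrocyte genes 2 and microglia genes 0. In tissue with many cell types, binding in a rare cell type and no binding cannot be told apart. Glutamate and GABA receptor genes had 12 of 43 with a peak (27.9%, 16.7 to 42.7%) and 4 at a promoter. Channel genes had 25 of 134 (18.7%, 13.0 to 26.1%) and 6, and axon guidance genes 15 of 66 (22.7%, 14.3 to 34.2%) and 3. The genes of these lists have median lengths of 138 kb, 44.0 kb and 62.8 kb, and of the longest 5202 protein-coding genes 23.8% had a peak, so the shares of channel and axon guidance genes were near those of all and of long genes.

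Of all 3535 genes with a peak, 2528 had one at a promoter, which is the layout to read the following families against. Cytosolic ribosomal protein genes had a peak in 29 of 81 (35.8%, 26.2 to 46.7%), 26 at a promoter. Rpl41 (154 over 17.5) and Rps26 (77 over 12.9) were the highest, and no ribosomal gene of this list had several. Splicing factors had 26 of 67 (38.8%, 28.0 to 50.8%), led by Hnrnph1 (97 over 11.1) and Hnrnpl (132 over 34.7) with 3 promoter peaks each. Respiratory chain genes had 20 of 81, all with a promoter peak, led by Uqcrq (127 over 19.3), mitochondrial ribosomal genes 18 of 78, proteasome genes 12 of 47, translation initiation factors 11 of 48, aminoacyl-tRNA synthetases 10 of 36, cyclins and CDKs 13 of 41 and histone genes 19 of 67. Zinc finger Zfp genes, at 68 of 383 (17.8%), stood at the level of all genes. Hox genes had 0 of 39 (upper limit 8.97%), Sox factors 1 of 18 (0.988 to 25.8%, which holds the share of all genes) and olfactory receptors 1 of 1087 (0.0920%). With each peak given to the nearest protein-coding start instead, histone genes fell from 19 to 8 and aminoacyl-tRNA synthetases from 10 to 6, while olfactory receptors went from 1 to 7 and Sox factors from 1 to 2.

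**Figure D4:**
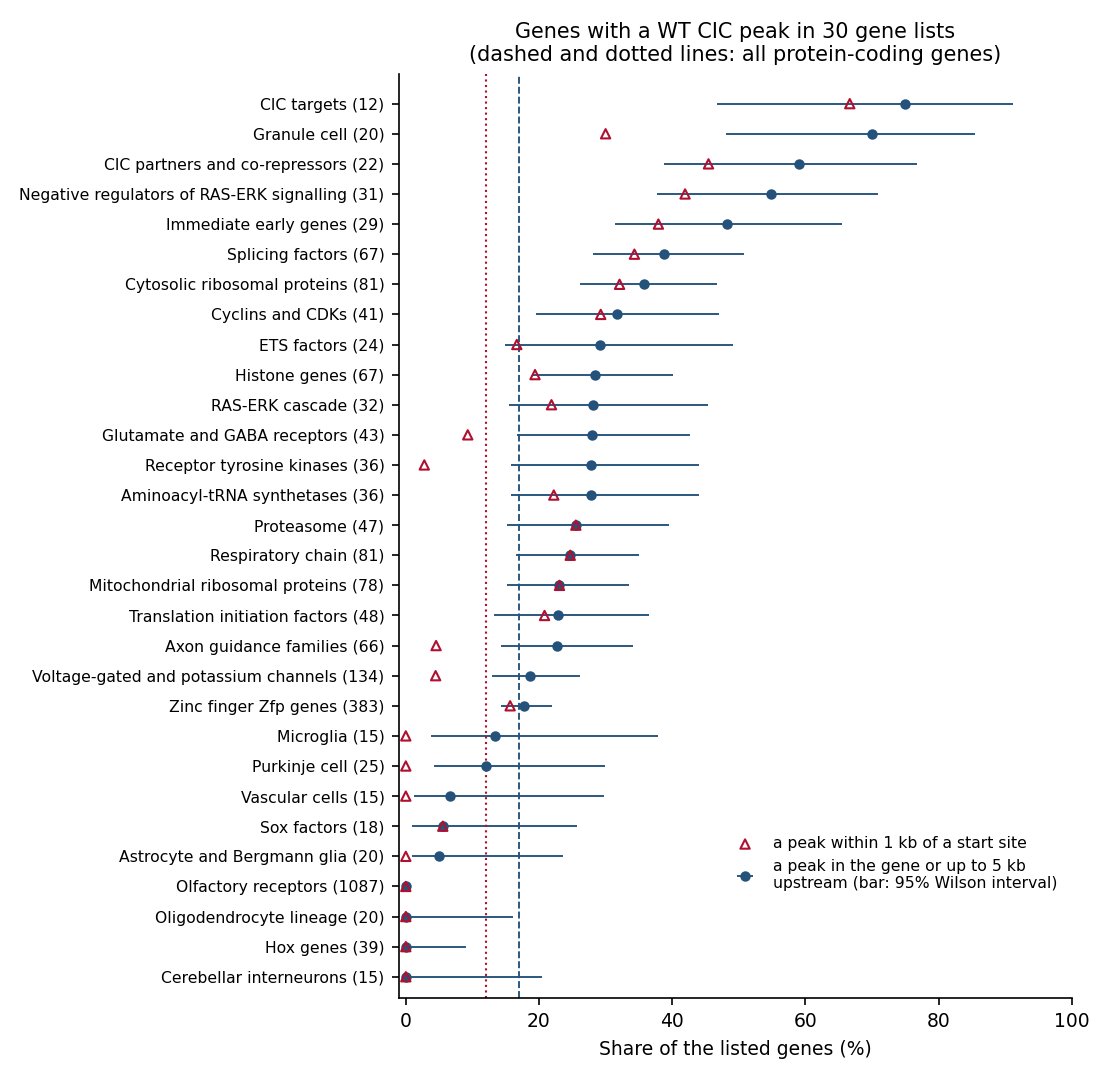
Share of each of 30 gene lists (number of genes in brackets) with a peak in the gene or up to 5 kb upstream (filled circles, with 95% Wilson intervals) and with a peak within 1 kb of a start site (open triangles), in percent; the dashed and dotted lines are the shares of all protein-coding genes, 17% and 12.1%. CIC targets and granule cell genes lie highest for any peak. For promoter peaks channel genes stand at 4.48% (Wilson interval 2.07 to 9.42%, not drawn). The promoter intervals of receptor and axon guidance families hold the 12.1%, and several other lists lie at 0.

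The CIC octamer was present in 106 of 4495 summit windows (2.36%, 95% Wilson interval 1.95 to 2.84%) and in 53 windows centred 500 bp to the right (1.18%). This difference passed the exact McNemar test (two-sided, p adjusted over 9 motifs = 4.23e-05), but with the flank taken 1 kb away the difference was 0.601 percentage points and the adjusted p was 0.0530. In windows of the same length at the starts of all protein-coding genes the share was 0.956%. The share was highest at the top of the list. The first 100 peaks had it in 14 (14.0%, interval 8.53 to 22.1%) and their flanks in 1, whereas the next 400 had it in 2.00%, the next 1000 in 2.80% and the rest in 1.87%. Of the 14, 12 were among the first 50. With the last base free, an alternative chosen after seeing the data, 24 of the first 100 summits and 2 of their flanks had a match. TGAATGAA was the most frequent form (52 windows, 21 in the flank), followed by TGAATGGA (37 and 19), TCAATGAA (15 and 12) and TCAATGGA (8 and 5). Within whole peak intervals 224 peaks (4.98%) held an octamer, at a median of 55 bp from the summit.

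Peaks outside promoters carried the octamer more often than promoter peaks, with 64 of 1930 (3.32%) against 42 of 2565 (1.64%). Fisher's exact test of this difference passed (two-sided, p adjusted over 3 contrasts = 0.000940), though among the 811 peaks above a −log10 q of 10 the adjusted p was 0.120. The flanks of the same peaks differed in the same direction, with the octamer in 1.66% outside promoters and 0.819% at promoters, so the difference was not particular to the summits. Multi-summit peaks had it in 29 of 993 (2.92%) and single-summit peaks in 77 of 3502 (2.20%), a difference of 0.72 percentage points that did not pass the exact test (adjusted p = 0.193). Peaks of genes with 2 or more peaks had it in 44 of 1656 (2.66%) and those of genes with 1 peak in 39 of 2184 (1.79%). This did not pass the exact test either (adjusted p = 0.110), though above a −log10 q of 10 the difference was 7.83 points and passed (exact test, adjusted p = 0.0260). At that cut only 33 genes had 2 or more peaks, Etv1 and Etv5 among them, and the test takes peaks of 1 gene as independent.

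Other promoter motifs were searched on both strands in the same way. The GC box GGGGCGGG of SP and KLF factors was the most frequent, in 8.48% of summit windows against 2.67% of flanks (exact McNemar test, adjusted p = 2.04e-34). The CCAAT box CCAATCA, bound by NFY, was in 4.05% against 0.957% (exact test, adjusted p = 2.59e-21), and in 5.73% of promoter summits against 2.87% at the starts of all protein-coding genes. The NRF1 motif GCATGCGC (1.58% against 0.245%), the ETS motif CCGGAAGT (1.36% against 0.378%), the cAMP response element TGACGTCA (0.779% against 0.133%), AAGATGGC of YY1 (1.18% against 0.512%) and the AP-1 motifs TGAGTCA and TGACTCA (2.02% against 1.18%) also passed, with adjusted p from 2.04e-11 to 0.00203. The E-box CACGTG (2.54% against 2.07%) did not (exact test, adjusted p = 0.164), though it passed under 3 of the alternative windows or flanks, while YY1, AP-1 and the cAMP response element each lost their call under at least 1 alternative. The ETS motif was less frequent at promoter summits (2.26%) than at the starts of all protein-coding genes (3.26%), and the GC box was somewhat more frequent (13.6% against 11.2%). AP-1 was the only one of the 8 other motifs with a higher share outside promoters (3.06%) than at them (1.25%), as for the octamer, and that contrast was not tested. At 71.2% of promoter peaks none of the 9 motifs was present in the window. Summit windows were richer in G and C than flanks (median 56.4% against 51.5%), and the part of this in the GC-rich motifs was not tested.

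**Figure D5:**
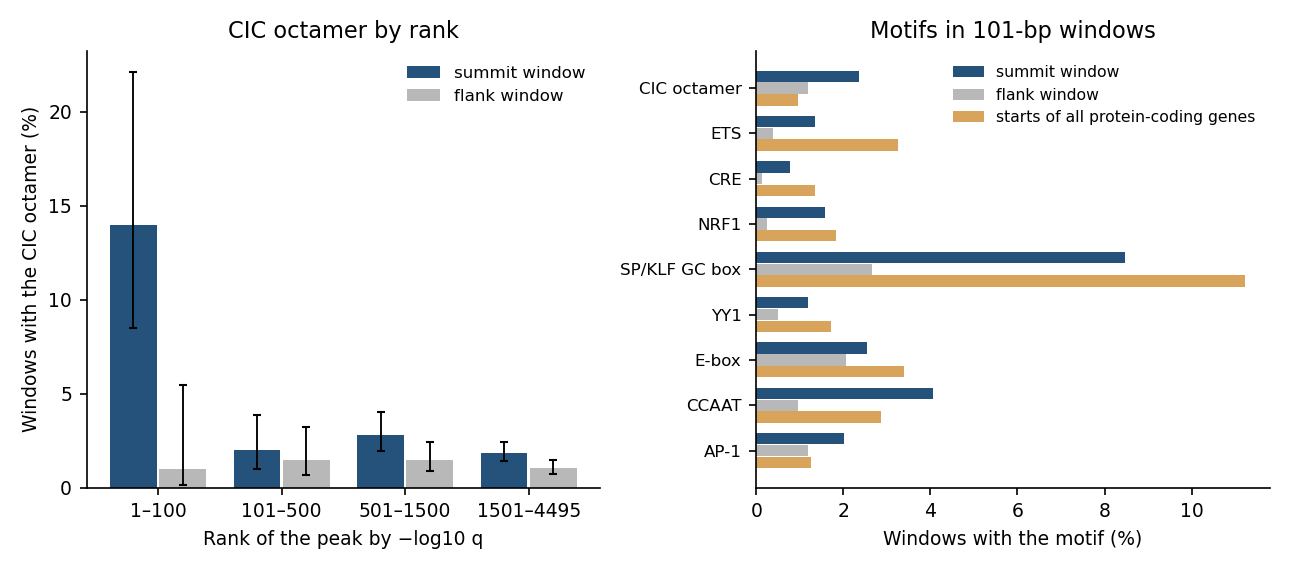
Left, share of windows with the CIC octamer in percent at summits (blue) and at flanks 500 bp to the right (grey) by rank, with 95% Wilson intervals; right, share of windows with each of 9 motifs at summits, flanks and the starts of all protein-coding genes (orange). The octamer stands at 14.0% of the 100 highest peaks and at 1.87 to 2.80% in the lower ranks.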

How the data were processed

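The authors profiled CIC in cerebellar nuclei by CUT&RUN, with 1 isolation per animal split over 3 antibodies. Reads were trimmed (Trimmomatic 0.36) and aligned with Bowtie2 2.3.4.1 to mm10 (GRCm38) and an E. coli spike-in genome, fragments under 120 bp were kept (SAMtools 1.10), blacklisted regions were removed (bedtools 2.29.1), replicates were merged, and MACS3 called peaks at a q-value of 0.05 with merged CIC KO as control. The deposited values are the fold enrichment (a ratio), −log10 p and −log10 q per summit, and the summit offset in bp. The caller adds a pseudocount of 1, and the files used here hold no value of a single animal. Peaks overlapping repeats by over 50% were to be omitted per the methods, but 131 remained by the soft-masking used here and were kept. The WT list is labelled as cleared of blacklisted regions but not as repeat-masked.

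Each peak was represented by its summit with the highest −log10 q. Start sites and gene bodies were those of GENCODE M21 basic on GRCm38, the build of the files. A promoter peak had its summit within 1 kb of a start, a gene held a peak whose summit fell in its body or up to 5 kb upstream, and coordinates are 1-based. Pileup and background were computed back from both deposited values (fold and −log10 p), which was tested on simulated data. Motif shares at summits and flanks were compared by exact McNemar tests (9 motifs) and 3 octamer contrasts by Fisher's exact test, two-sided, with Benjamini-Hochberg adjustment (scipy). These tests are over peaks, not animals. The genes named are those at the 25 highest-ranked peaks, 12 CIC targets, Cic, En1 and Atxn1, those of the 10 widest peaks and of the 10 with most summits, the 10 genes with most peaks, and up to 4 leading members of each list; groups of peaks and other members were named after their values were seen. Members and lists were chosen with earlier results of these data known. Alternatives were −log10 q cut-offs of 3 and 10, repeat removal, X and Y, other promoter, gene and group distances, and other motif windows.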

Additional observations from a re-analysis of the deposited data

How the results depend on the processing

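Results fixed by the calling threshold moved most. Above a −log10 q of 3 the list had 2733 peaks, a median width of 254 bp, 32.4% multi-summit peaks, 62.0% promoter peaks, 343 genes with 2 or more peaks and 510 peaks in groups. Above 10 these were 811 peaks, 340 bp, 44.4%, 72.3%, 33 genes and 38 peaks, with 859 genes holding a peak; the octamer difference outside against at promoters was then 2.81 percentage points (exact test, adjusted p = 0.120), and that between genes with 2 or more peaks and genes with 1 was 7.83 points and passed (adjusted p = 0.0260). With each summit line as a site the median width was 254 bp. Promoter share was 50.6% within 500 bp, 62.7% within 2 kb and 53.3% with protein-coding starts only, and 216 genes had 2 or more peaks within 1 kb of a start. With the flank 1 kb away the octamer difference was 0.601 points (exact test, adjusted p = 0.0530), and with the last base of the octamer free, an alternative chosen after seeing the data, it was 1.78 points (adjusted p = 7.16e-05). Leaving out repeat peaks (4364 peaks) or adding chromosomes X and Y (4588 peaks) moved none of these; without repeat peaks the vascular list fell to 0. No paired analysis was possible because the files used here hold merged replicates, and for the same reason no animal could be left out. With a smallest pileup of 19 fragments, weaker sites were not detectable at this depth.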

Other observations

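Genes of the circadian clock recurred among the groups of neighbouring peaks. The list was drawn up after Per1, Nr1d1 and Dbp were seen there, so its count is a description only. Of 21 clock genes, 13 had a peak (61.9%), 12 of them at a promoter, and 6 had 2 or more, whereas 17% of all protein-coding genes had a peak and 12.1% a promoter peak. Only the best peaks of Per2 (rank 181), Nr1d2 (197), Per1 (426), Cry2 (743) and Tef (771) were among the 811 peaks above a −log10 q of 10. The output factor gene Dbp had 6 peaks, and Per1, Nr1d1 and Tef had 4 each, followed by Cry2 with 3 and Cry1 with 2. Per2, a core repressor of the clock, held 140 fragments over 43.3 at its best peak, Nr1d2 held 85 over 18.1 and Per1 153 over 65.5. Arntl had 1 weak peak at 1.36-fold (209 over 154), and Clock, Npas2, Rorb, Bhlhe40, Bhlhe41, Ciart, Csnk1d and Csnk1e had none. The time of day at which tissue was taken is not given in the sources used here.

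An intron of Ptch1, the Hedgehog receptor, held 89 fragments over the genome-wide background of 6.59 (11.9-fold, rank 41). Its summit lay 15755 bp downstream of the nearest start.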
